A study of Mus musculus with 33 samples.

Results

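The extracellular matrix genes described here are 40 genes taken from a list of collagens, basement membrane proteins, elastic fibre proteins, proteoglycans, matricellular proteins and crosslinking enzymes, out of 32285 genes in the count matrices. They were chosen by name, without a threshold on any measured value but with earlier results of these data known. All 40 had at least 1 UMI (unique molecular identifier, a count of 1 captured RNA molecule) in both experiments. The study used single-cell RNA sequencing of mouse tissues after SAMENT labelling, in which cells near labelled tumour cells are tagged with biotin and sorted into biotin positive (tagged) and biotin negative (untagged) cells after about 10 h with the substrate. In the intracardiac injection experiment, there were 32 samples: 4 tagged and 4 untagged ones from each of 4 organs (bone, brain, liver, lung). In the iia-injection experiment (the labels do not spell out the abbreviation), bone gave 6 positive and 6 negative samples, which were pooled by hashtag into 1 library and are called the IIA samples. The sources used here do not give the injected cells, the mouse strain, age and sex, or whether a replicate number marks 1 animal or a pool, so p-values measure the spread between these samples only.

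The extracellular matrix is the network of secreted proteins around cells. Fibrillar collagens and fibronectin form fibres, collagen IV, laminins, nidogen and perlecan form the sheets under endothelium and epithelium, and lysyl oxidases crosslink the fibres. In most tissues fibroblasts, mural cells and endothelial cells are the main producers, and macrophages and monocytes are known for a few members such as fibronectin.

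Depth ran from 482617 to 44834665 UMIs per intracardiac sample and from 2149784 to 27903856 per IIA sample, with 55366 and 22362 cells kept. Intracardiac libraries were read from the 3′ end of transcripts and IIA libraries from the 5′ end, so levels were not compared between the experiments. Levels are CPM (a gene's UMIs scaled to the total UMIs of the sample or class), and since each UMI is 1 molecule they were not scaled by gene length. The 112 pairs of intracardiac libraries with the same replicate number shared 0 cell barcodes, and the 384 pairs with different numbers shared 341, at most 7 in a pair. Where a class is specific to an organ it lay there: all 451 microglia-like cells were in brain and 3897 of 3946 alveolar macrophage-like cells were in lung. Cell classes are named X-like from marker lists, and clusters whose markers did not allow a name keep a number.

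Promoter sequence is shown for members that differ in the cells that carry them. The stretches are the 250 bases before the annotated start, 5′ to 3′ on the gene's strand, from RefSeq (GRCm38.p6), and 26 of the 40 members had an entry. Capitals mark matches, searched on both strands, to 4 motifs. The TATA box was searched as TATAAA and the CCAAT box by its own letters. The letters GGGCGG stood for the GC box, and GAGGAA for the core read by PU.1, a myeloid transcription factor. Col1a2 (chr6:4505368-4505617, plus strand) and Col3a1 (chr1:45311288-45311537, plus strand) encode chains of fibrillar collagens I and III, which had most of their UMIs here in fibroblast-like cells. Ecm1 (chr3:95739570-95739819, minus strand) encodes a secreted glycoprotein, and most of its intracardiac UMIs were in cluster 22, which the markers did not name. Emilin1 (chr5:30913536-30913785, plus strand) encodes an elastic fibre glycoprotein and was carried here mostly by myeloid cells.
Col1a2: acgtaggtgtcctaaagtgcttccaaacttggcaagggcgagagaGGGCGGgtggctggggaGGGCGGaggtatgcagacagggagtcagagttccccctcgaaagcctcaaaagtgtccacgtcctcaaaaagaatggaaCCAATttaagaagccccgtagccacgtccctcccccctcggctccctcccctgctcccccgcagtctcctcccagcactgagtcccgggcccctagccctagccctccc
Col3a1: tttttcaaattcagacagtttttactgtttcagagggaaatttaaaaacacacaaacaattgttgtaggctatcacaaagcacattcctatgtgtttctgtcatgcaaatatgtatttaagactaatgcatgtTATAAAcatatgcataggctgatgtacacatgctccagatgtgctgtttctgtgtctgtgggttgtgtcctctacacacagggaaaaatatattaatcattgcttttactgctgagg
Ecm1: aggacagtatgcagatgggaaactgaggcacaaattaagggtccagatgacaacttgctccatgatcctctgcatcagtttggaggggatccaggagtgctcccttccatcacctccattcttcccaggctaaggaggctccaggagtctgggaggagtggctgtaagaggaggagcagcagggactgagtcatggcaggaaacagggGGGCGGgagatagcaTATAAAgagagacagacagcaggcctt
Emilin1: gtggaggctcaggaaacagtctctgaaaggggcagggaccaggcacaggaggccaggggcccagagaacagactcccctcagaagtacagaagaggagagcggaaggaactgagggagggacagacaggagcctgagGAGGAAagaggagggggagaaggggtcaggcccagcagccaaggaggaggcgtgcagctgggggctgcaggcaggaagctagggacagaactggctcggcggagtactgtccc
Over the 26 members with a promoter, the GC box was found in 18, against 32.7% of 32851 mouse promoters, and CCAAT in 7, against 33.8%. TATAAA was found in 4 (Ccn1, Col3a1, Ecm1 and Tnc), against 12.4%, and GAGGAA in 8, against 23.3%. Of the 4 shown, Col1a2 held 2 GC boxes and a CCAAT, Col3a1 a TATAAA, Ecm1 a GC box and a TATAAA, and Emilin1 a GAGGAA. The median GC content was 62.0% in the members' promoters and 52.4% in all promoters. A match describes the letters only.

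In the intracardiac samples most members came from few cells. Fibroblast-like (123 cells), mural-like (39), endothelial-like (787) and epithelial-like (64) cells together made up 1.83% of cells and 1.41% of UMIs. They held over 50% of the UMIs of 30 of the 40 members and over 90% of 17, and the median member had 87.2% of its UMIs there. The highest mean level lay in a fibroblast-like, mural-like or endothelial-like class for 36 members, and the others were Col15a1, Col18a1, Efemp1 and Ecm1. The class was mural-like for Col4a1, Col4a2, Fbn1, Eln, Bgn, Postn, Lama4, Lamb1, Lamc1, Nid1, Loxl2, Ccn2 and Serpinh1. For these the level rests on 1 sample, lung positive 1, the only one with at least 10 mural-like cells. The count of 36 was 16 with the classes used before clusters rich in stromal markers were re-clustered, a step added after the data were seen. The 40 members were left out of the genes used for clustering. The fibroblast-like class was mixed: beside Pdgfra (180 CPM) and Dpt (125 CPM) it held Cdh5 (185 CPM), an endothelial marker, and Epcam (165 CPM) and Krt8 (154 CPM), epithelial markers. The part of these other cells in its levels was not tested.

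**Figure D1:**
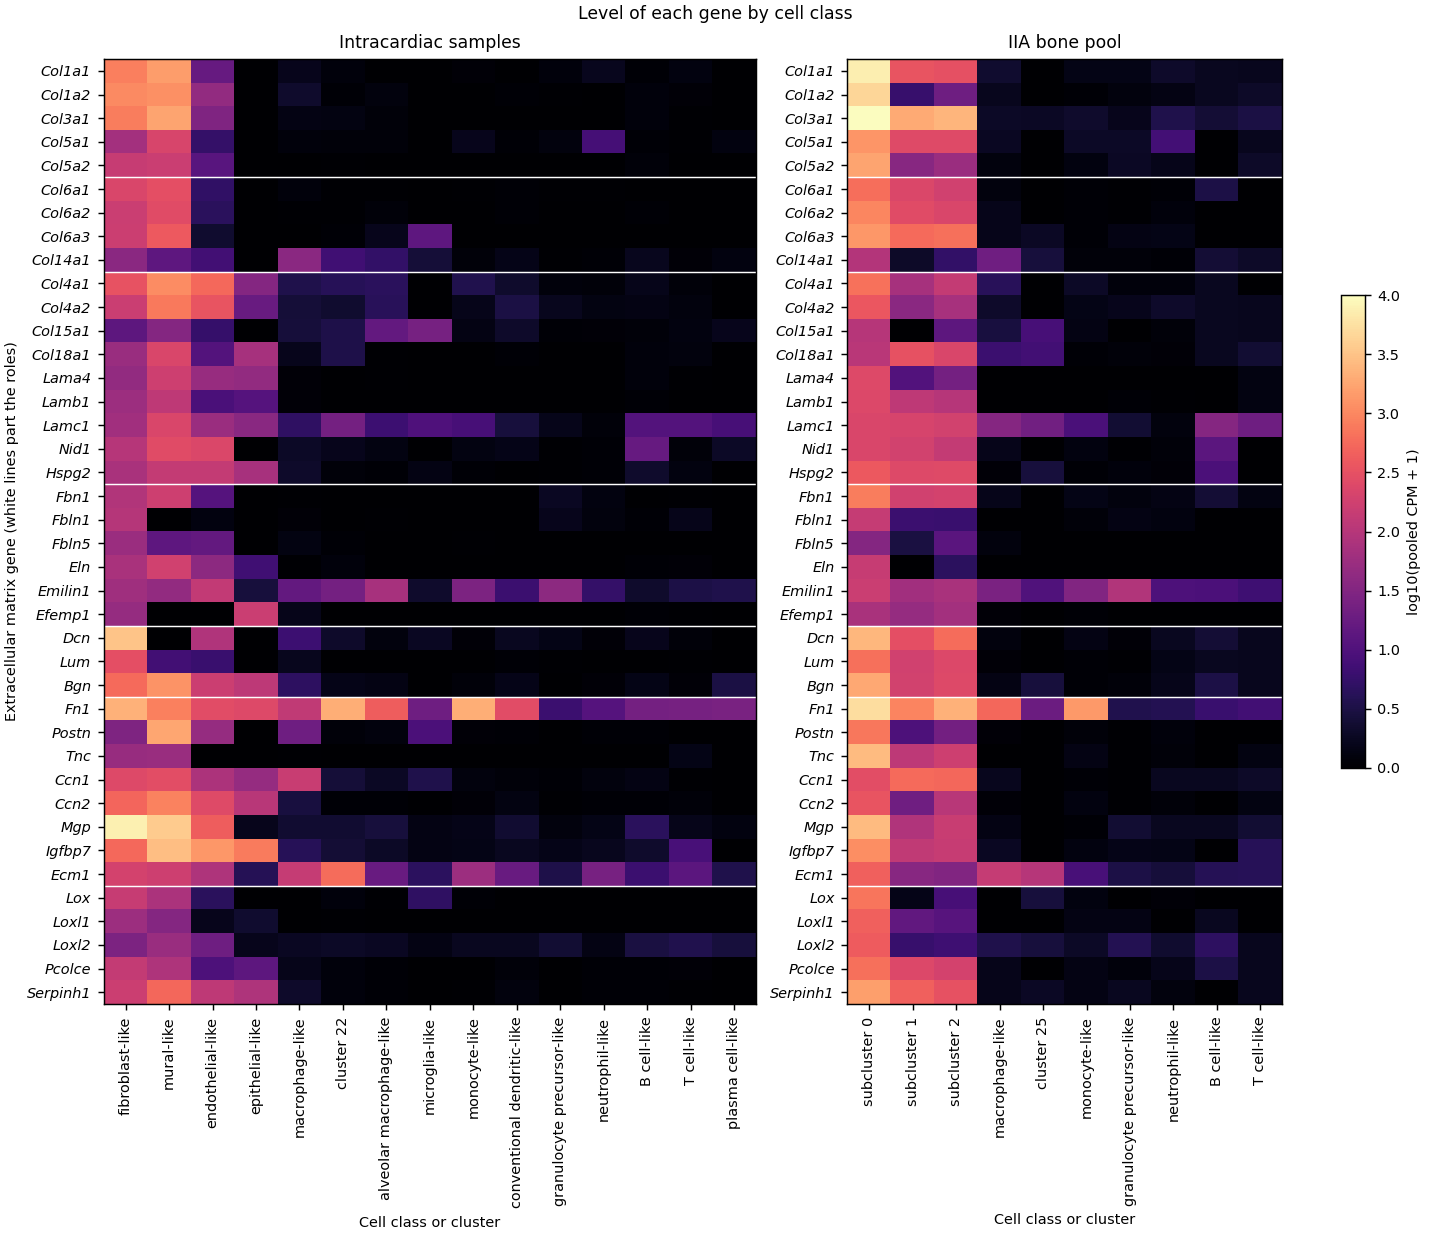
Level of each extracellular matrix gene (rows, parted by role) in cell classes (columns) of the intracardiac samples (left) and the IIA pool (right), coloured by log10 of pooled CPM + 1. Most rows are brightest in the fibroblast-like, mural-like and endothelial-like columns or in subcluster 0, while Fn1, Ecm1 and Emilin1 also stand out in myeloid columns.

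Among fibrillar collagens, 4 of 5 had over 50% of their UMIs in the fibroblast-like class, and Col5a1 had not. Col1a2 reached 1038 CPM there (1950 ± 2455, SD over the 4 samples with at least 10 such cells), against 44.6 CPM in endothelial-like cells and 0.0170 CPM in monocyte-like cells. Col1a1 (847 CPM), the other collagen I chain, and Col3a1 (809 CPM) had 67.1% and 67.9% of their UMIs in that class. The pooled 39 mural-like cells stood higher still, with 1490 CPM of Col1a1, 1154 of Col1a2, 1748 of Col3a1 and 219.2 of Col5a1. In the 1 sample with at least 10 mural-like cells, lung positive 1, the levels were lower, at 53.04 CPM of Col1a1, 265.2 of Col1a2 and 53.04 of Col3a1. The SD over samples exceeded the mean for Col1a1 and Col1a2 (1664 ± 2543 CPM for Col1a1) and was close to it for Col3a1 (1303 ± 1246). Col5a1, a minor fibrillar collagen that starts fibrils, differed from the other 4: 11.02% of its 1044 UMIs were in the non-haematopoietic classes and 67.5% in neutrophil-like cells. The level in neutrophil-like cells was low at 6.92 CPM, with a UMI in 4.00% of cells and in 0.428% once each cell was thinned to 1000 UMIs. In B cell-like cells it was 0.0778 CPM, with a UMI in 0.0208% of cells (median depth 2197 UMIs against 5693 in neutrophil-like cells). Col5a2 had 96.3% of its UMIs in the non-haematopoietic classes.

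Collagen VI, a beaded-filament collagen, followed collagen I. Col6a1, Col6a2 and Col6a3 had 75.0%, 70.3% and 57.5% of their UMIs in fibroblast-like cells. Col14a1, a fibril-associated collagen, did not: 57.2% of its UMIs were in macrophage-like cells (37.3 CPM) and 16.6% in alveolar macrophage-like cells. Its level in macrophage-like cells ranged over samples from 0 to 369 CPM with a median of 10.0, so that a few samples held most of it. In B cell-like cells Col14a1 stood at 0.7001 CPM.

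Of the 9 basement membrane members, 4 had over 50% of their UMIs in endothelial-like cells. Col4a1 and Col4a2, the chains of collagen IV, had 61.6% and 61.3% of their UMIs there, at 543 and 350 CPM. Nid1, which links laminin to collagen IV, had 62.2% (231 CPM) and Hspg2, perlecan, 60.0% (135 CPM). Of the laminin chains, Lama4 had 49.5% there, while Lamb1 had its largest share, 43.9%, in fibroblast-like cells. The 39 mural-like cells held 1083 CPM of Col4a1 and 767 of Col4a2, but only 1 sample, lung positive 1, had 10 or more of these. Nid1 also had 17.2% of its UMIs in B cell-like cells. Col15a1, a collagen near basement membranes, had 67.6% of its UMIs in alveolar macrophage-like cells (12.6 ± 4.02 CPM, n = 6 samples) and only 4.23% in the non-haematopoietic classes. Col18a1 had its largest share, 36.4%, in epithelial-like cells, and 61 of those 64 cells came from liver positive 1. In all cells it stood at 18.36 CPM in that sample and at 0.8552, 4.305 and 0 in liver positive 2 to 4. Lamc1 was spread, with 20.6% in monocyte-like cells and 20.1% in cluster 22, a cluster the markers did not name.

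The proteoglycans and matricellular members differed in the class that held most of their UMIs. Dcn, decorin, reached 3215 CPM in fibroblast-like cells (87.7% of its UMIs) and Lum, lumican, 294 CPM (89.2%). Mgp, an inhibitor of calcification, was the highest member there at 7535 CPM, although its sample means ran from 3.89 to 10932 CPM. Igfbp7, a secreted protein of vessels, stood at 1648 ± 893 CPM (n = 13 samples) in endothelial-like cells, which held 60.4% of its UMIs. Ccn2, a matricellular protein, had 47.2% of its UMIs there. Postn, periostin, was split between mural-like cells (34.9% of UMIs) and macrophage-like cells (34.4%). Of the 39 mural-like cells, 25 came from lung positive 1. In all cells Postn was highest in liver positive 2 (26.23 CPM), brain positive 2 (18.67) and lung positive 1 (16.33), and every other intracardiac sample was under 3 CPM. Ccn1, a matricellular protein induced by growth factors, had 73.1% of its 2917 UMIs in macrophage-like cells, at 149 CPM, with a range from 0 to 667 CPM and a median of 20.1 over 19 samples. In neutrophil-like cells Ccn1 was at 0.255 CPM.

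Fn1, fibronectin, was the most abundant member, and 3 classes held most of it. Of its 239422 UMIs, 51.5% were in monocyte-like cells, 20.4% in cluster 3 and 16.2% in cluster 22. Monocyte-like cells held 1848 ± 496 CPM (n = 30 samples) and neutrophil-like cells 15.3 ± 8.89 (n = 32). After thinning to 1000 UMIs per cell, 67.0% of monocyte-like cells and 1.24% of neutrophil-like cells had an Fn1 UMI, against 83.4% and 6.63% before. Fibroblast-like cells held 2260 CPM of Fn1 but only 0.975% of its UMIs. Ecm1 had 51.9% of its UMIs in cluster 22, at 583 ± 155 CPM (n = 17), and 23.3 ± 14.3 in neutrophil-like cells (n = 32). Emilin1 had 28.3% of its UMIs in alveolar macrophage-like cells, 17.6% in monocyte-like cells and 15.3% in granulocyte precursor-like cells, where it stood at 38.3 ± 6.88 CPM (n = 11). Its highest mean level, 154 ± 136 CPM (n = 13), was in endothelial-like cells.

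Among crosslinking and processing members, Lox and Loxl1, lysyl oxidases, had 75.9% and 81.9% of their UMIs in fibroblast-like cells, and Pcolce, an enhancer of procollagen processing, 58.8%. Serpinh1, the collagen chaperone HSP47, had 41.3% in endothelial-like cells. Loxl2 was the exception, with 19.5% in all non-haematopoietic classes. Elastic fibre members Fbn1, Fbln1, Fbln5 and Eln were scarce, with 120 to 255 UMIs each, and Fbln1 had 46.4% of its 222 in the non-haematopoietic classes. Efemp1, another fibulin, had 78.8% of its UMIs in epithelial-like cells. In all cells Efemp1 stood at 31.06 CPM in liver positive 1, the source of 61 of these 64 cells, and at 0, 0.8073 and 0 in liver positive 2 to 4.

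**Figure D2:**
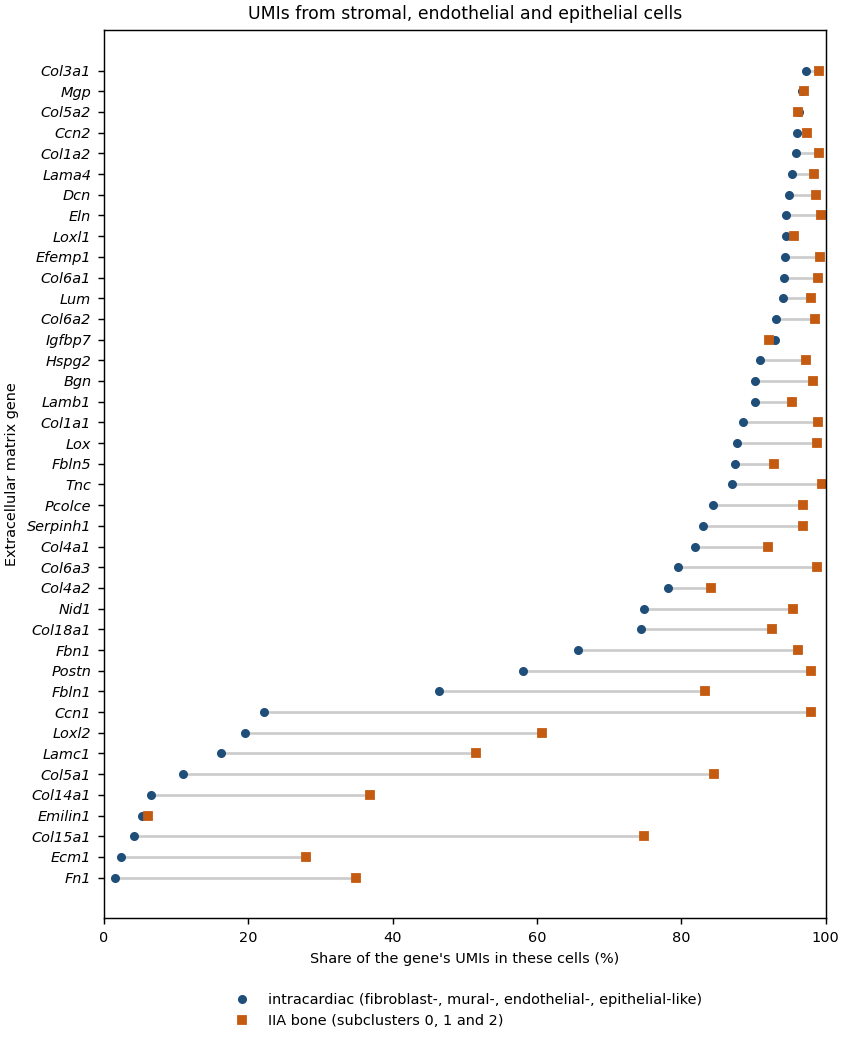
Percent of each gene's UMIs found in fibroblast-like, mural-like, endothelial-like and epithelial-like cells of the intracardiac samples (circles) and in subclusters 0 to 2 of the IIA pool (squares). The markers did not name these subclusters. Most genes lie above 50%, and Fn1, Ecm1, Emilin1 and Col14a1 lie below 50% in both.

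In the IIA bone samples the members were held by an even smaller set of cells. A cluster of 198 cells (0.885% of cells, 3.62% of UMIs) was high in 43 of 65 stromal and endothelial markers and held over 50% of the UMIs of 36 members and over 90% of 30. The 43 markers and these shares are those of the undivided cluster. It split into 3 subclusters that the markers did not name. Subcluster 0 matched 3 fibroblast markers, and no list matched subclusters 1 and 2 with more than 1 marker. Subcluster 0 (60 cells) held Pdgfra (306.6 CPM), Prg4 (4708 CPM) and Timp1 (5721 CPM), and it had the highest collagen I and III, with Col1a1 at 7301, Col1a2 at 4610 and Col3a1 at 10166 CPM. Subclusters 1 and 2 (74 and 64 cells) held Hmga2, Rhox5 and Pvt1, with 1941 and 2375 CPM of Col3a1 but only 4.94 and 19.0 CPM of Col1a2. Subcluster 2 also held S100a8 at 17921 CPM, a neutrophil marker. Of the members with most UMIs outside these cells, Emilin1 had 60.2% in granulocyte precursor-like cells, Col14a1 54.3% and Ecm1 51.4% in macrophage-like cells, and Fn1 49.6% in monocyte-like cells. These 4 members (Fn1, Ecm1, Emilin1 and Col14a1) had under 50% of their UMIs in subclusters 0 to 2, and also under 50% in the fibroblast-like, mural-like, endothelial-like and epithelial-like cells of the intracardiac samples.

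The cells that carry most members were more frequent among tagged cells in each organ, a description of pooled cells with no test. In bone, 31 of the tagged cells (0.687%) and 4 of the untagged cells (0.0348%) were fibroblast-like. The shares were 0.680% against 0.0402% for brain, 0.743% against 0.0230% for liver and 0.531% against 0.0567% for lung. Of the 39 in positive lung, 31 came from lung positive 1, and liver positive 2 and 4 had 0 of 23. Endothelial-like cells numbered 200 in positive lung, 175 of them in lung positive 1. In IIA, subcluster 0 made up 1.11% of positive cells (54) and 0.0343% of negative cells (6), and 40 of those 54 came from positive 2 and 3. In sums over all cells, more cells of a type and more RNA per cell cannot be told apart.

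The first question of the design is whether RNA of tagged cells differed from that of untagged cells in each tissue. Counts were summed per sample over all cells and tested with edgeR's quasi-likelihood test, with Benjamini-Hochberg adjustment over all genes that passed the low-count filter. A member is called changed at an adjusted p under 0.05, and differences are log2 fold changes of positive over negative with their SE. Members that missed the filter, from 7 in IIA to 28 in brain, have no test. A member near the floor in negative samples can pass the filter through the positive ones alone, and a call can only be a rise. Counts from other fits (DESeq2, a block for the replicate number, cells or samples left out) show how the calls moved. Where no share of all genes stands beside such a count, it is not a result about the members.

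In bone, 17 of the 40 members were tested and 0 were called, as were 0 of 12533 genes (0% called). At an unadjusted p under 0.05 there were 9 members, against 7.84% of all genes. DESeq2 called 4, and its share of all genes is not given here. Decorin (Dcn) stood at 0.237, 1.05, 0.152 and 0.0892 CPM in bone negative 1 to 4 and at 48.5, 81.9, 4.56 and 19.1 CPM in bone positive 1 to 4. Every positive sample was above every negative sample, and the difference was 6.43 ± 1.04 (edgeR adjusted p = 0.615). Replicate numbers pair the bone samples, and with the number as a block Dcn was called (6.52), the 1 call of that fit. Fbn1, fibrillin, stood at 0.0947, 0.112, 0.190 and 0.223 CPM in the negative samples and at 1.73, 2.87, 1.05 and 0.730 in the positive ones, also without overlap (2.97 ± 0.52, edgeR adjusted p = 0.615). Collagen I was uneven: Col1a1 stood at 7.29, 76.0, 0.561 and 0.584 CPM in the positive samples, of which bone positive 3 and 4 lay within the negative range of 0.237 to 0.635.

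In brain, 12 members were tested and 1, Fn1, fell, against 3.06% of genes called, 2.88% called higher and 0.181% called lower. There were 7 members, against 21% of genes, at an unadjusted p under 0.05. Fn1 stood at 674, 667, 757 and 371 CPM in the negative samples and at 175, 105, 145 and 114 CPM in the positive samples. The groups did not overlap, and the difference was -2.46 ± 0.27 (edgeR adjusted p = 0.00974). Fn1 was no longer called without brain negative 1 (-2.50) or without brain positive 4 (-2.39). With the replicate number as a block, Ccn1 (5.34) was called as well. Ccn1 stood at 32.9, 515, 13.6 and 25.8 CPM in the positive samples and at 0.101, 15.3, 1.70 and 0.140 in the negative ones, so that brain negative 2 lay above brain positive 3. Serpinh1 (1.79) and Dcn (4.07) were tested and did not pass. Without brain positive 1, 3 members were called.

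In liver, 14 members were tested and 0 were called, as were 0 of 11854 genes (0% called). At an unadjusted p under 0.05 there were 8 members, against 13.3% of genes. DESeq2 called 4, and its share of all genes is not given here. Biglycan (Bgn), a small leucine-rich proteoglycan, stood at 1.26, 3.70, 1.65 and 5.32 CPM in the negative samples and at 36.8, 5.84, 45.7 and 35.2 CPM in the positive ones. The groups did not overlap (3.13 ± 0.74, edgeR adjusted p = 0.149), and Bgn was called without liver positive 2 (3.51), where 2 members were called. Ccn1 stood at 0.706, 2.29, 0 and 0.940 CPM in the negative samples and at 19.9, 26.5, 2.96 and 14.5 in the positive ones (3.72 ± 0.90, edgeR adjusted p = 0.150). Here too each positive sample was above each negative one.

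In lung, 15 members were tested and 6 rose, against 18.3% of genes called, 11.5% called higher and 6.8% called lower. The count at an unadjusted p under 0.05 was 10 members, against 35.1% of genes. The first was Col6a3, which stood at 0, 0.0850, 0 and 0 CPM in the negative samples and at 0.944, 2.48, 1.18 and 1.14 CPM in the positive samples (5.38 ± 0.80, edgeR adjusted p = 0.00377). Since 3 negative samples were at 0, the size of that fold depends on the prior count. Col14a1 stood at 0.346, 0.765, 0.209 and 0.132 CPM against 4.27, 3.83, 5.14 and 6.36 (3.45 ± 0.55, edgeR adjusted p = 0.00480). Positive samples were all higher for both collagens. Col15a1 stood at 0.432, 0.850, 0.209 and 0.330 CPM in negative samples and at 5.25, 16.3, 5.44 and 3.18 in positive ones (3.70 ± 0.62, edgeR adjusted p = 0.00578). Alveolar macrophage-like cells, which held most of its UMIs, were 0.283% of untagged and 52.67% of tagged lung cells, and their part in the result was not tested. The basement membrane chains Col4a2 (3.22 ± 0.61) and Col4a1 (2.58 ± 0.69) and the proteoglycan Bgn (4.03 ± 0.77) made up the rest, with lung positive 1 the highest sample for all 3. Col6a3, Col14a1, Col15a1 and Bgn met the low-count filter only through the positive samples, so for them a call could only be a rise. Col4a1 lost its call without any of lung negative 1 (2.56), 3 (2.62) or 4 (2.30), or lung positive 1 (1.92) or 3 (2.57), and with the replicate number as a block. Without lung negative 2, or without lung positive 3, 10 members were called. Without the fibroblast-like, mural-like and endothelial-like cells, 2 members were called, Col14a1 (3.43) and Col15a1 (3.70), the pair carried mostly by macrophage-like classes. The number tested and the share of all genes in that fit are not given here. Members that missed its filter are thus not told apart from members that lost a call.

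**Figure D3:**
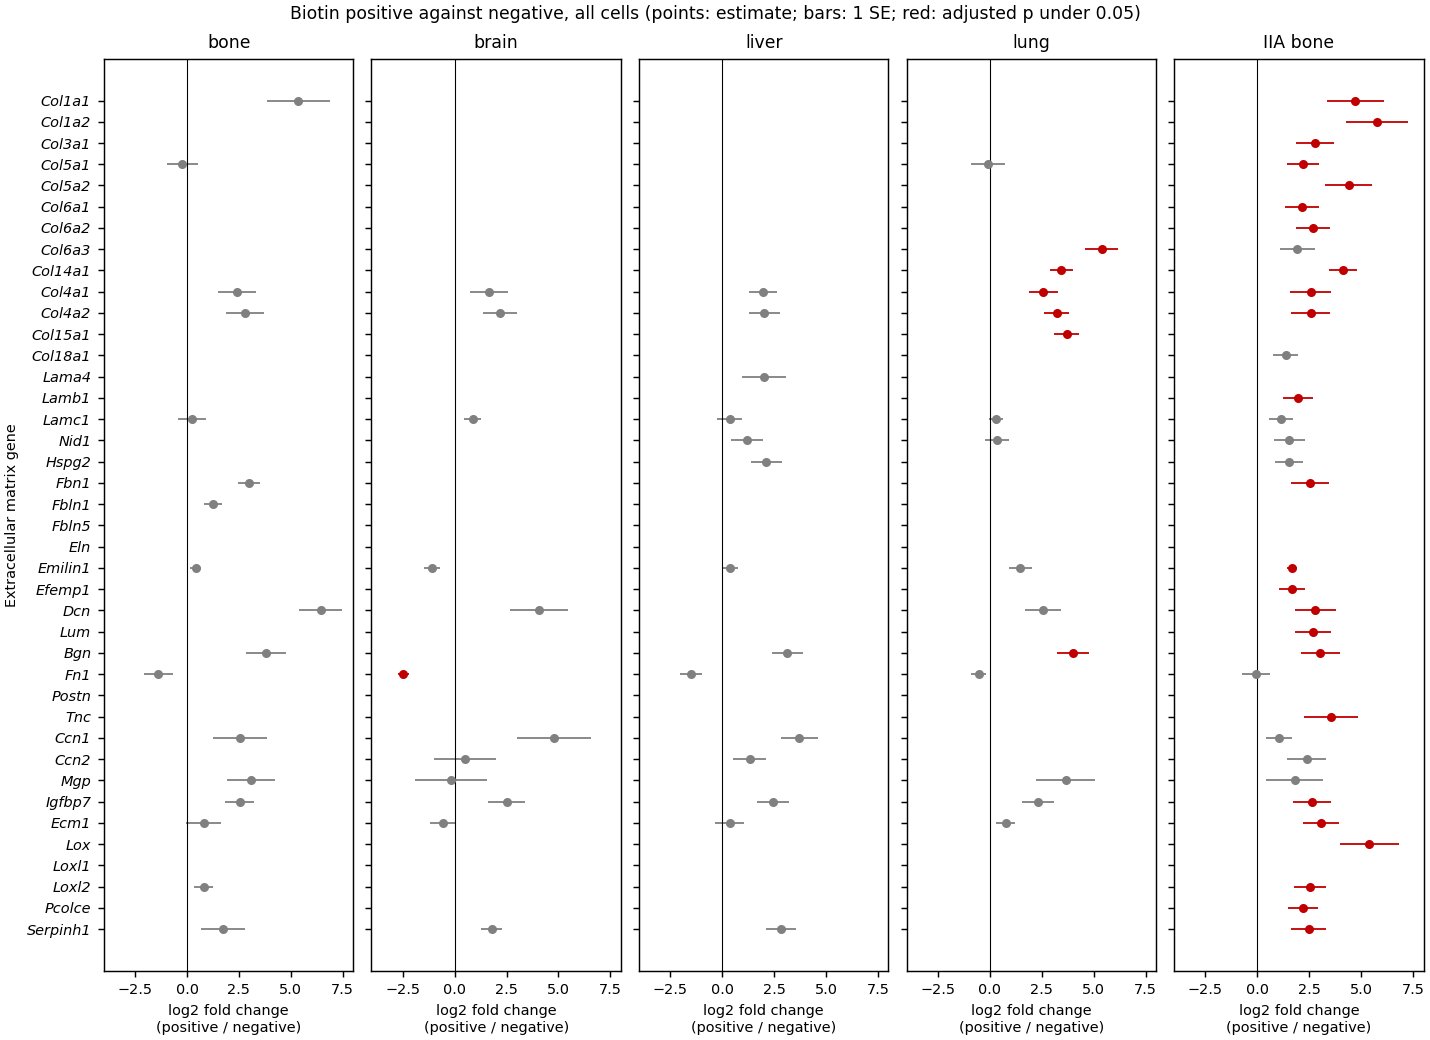
Log2 fold change of biotin positive over negative samples for each tested extracellular matrix gene, all cells, one panel per tissue, with bars of 1 SE and red points for adjusted p under 0.05. There are 24 red points in IIA bone, 6 in lung, 1 in brain and 0 in bone and liver.

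In IIA bone, 33 members were tested and 24 rose, against 50.2% of genes called, 27% called higher and 23.2% called lower. Unadjusted p-values under 0.05 were found for 28 members, against 56.6% of genes. Those that rose at the adjusted threshold were all 5 fibrillar collagens, 3 of 4 collagen VI and XIV members, all 3 proteoglycans, 3 of 3 tested elastic fibre members, 4 of 4 tested crosslinking members, 3 of 7 tested basement membrane members and 3 of 7 tested glycoproteins and matricellular members. Emilin1 was lowest at 17.5, median 21.1 and highest at 24.9 CPM in the negative samples, and 44.9, 81.5 and 109 CPM in the positive ones (1.66 ± 0.23, edgeR adjusted p = 0.000112). Col14a1 ran from 0.0692 through 0.331 to 0.665 CPM and from 1.76 through 4.12 to 16.8 CPM (4.13 ± 0.69, edgeR adjusted p = 0.000439). Neither gene's groups overlapped. Col14a1 met the low-count filter only through the positive samples, so a call could only be a rise. Granulocyte precursor-like cells, which held 60.2% of the UMIs of Emilin1, were 11.87% of negative and 34.02% of positive cells, and macrophage-like cells, which held most of Col14a1 and Ecm1, were 2.175% and 16.22%. The part of these shares in the results was not tested. The collagen I chain Col1a2 ran from 0.346 through 0.494 to 10.8 CPM and from 1.86 through 18.6 to 553 CPM (5.77 ± 1.5, edgeR adjusted p = 0.00701). Its groups overlapped, since negative 2 was above positive 4 and 6. Col5a2 (4.39 ± 1.11), Lox (5.40 ± 1.40) and Ecm1 (3.07 ± 0.87) rose as well, each with IIA positive 2 highest, and each of these 6 kept its call in all 12 fits that left out 1 sample.

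The IIA count moved with the samples and cells that entered the sum. The share of all genes called in each such fit is not given here, so the moves are not a result about the members. Positive 2 and 3 held 869 and 559 CPM of Col1a1, the other positive samples 2.33 to 64.6. Without positive 2 there were 11 calls, without positive 3 there were 12, and without negative 3, 4 or 5 there were 14 each and without negative 1 or 6 there were 17 each. The highest count, 31, was without positive 6, and with the replicate number as a block it was 13. Without the clusters rich in stromal markers, an alternative added after the data were seen, 7 members were tested and 5 called. Emilin1 (1.67) and Ecm1 (3.04) rose in that fit, while Fn1 (-1.59), Col3a1 (-1.24) and Col5a1 (-1.71) fell, the last 2 opposite to the sum of all cells.

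**Figure D4:**
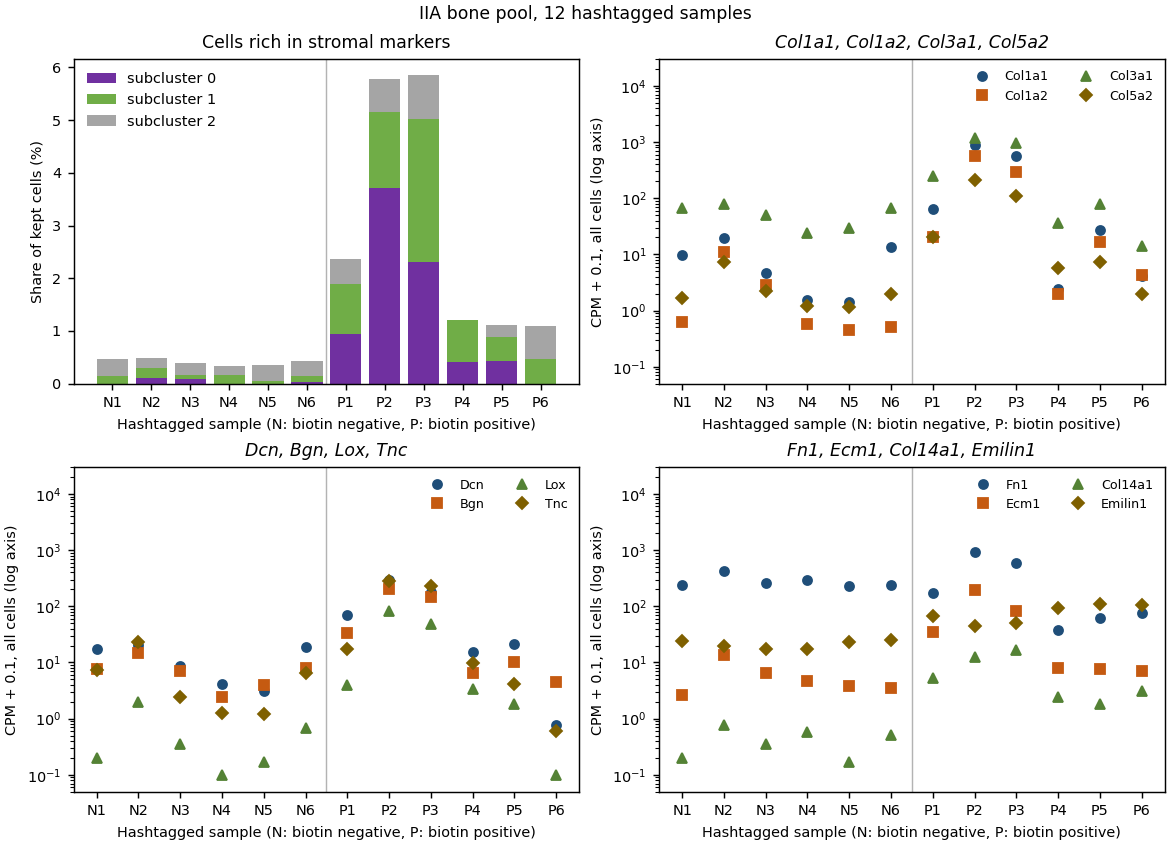
Share of cells in subclusters 0 to 2 (stacked bars) and CPM + 0.1 of 12 genes on log axes (points) in each IIA sample, N for biotin negative and P for positive. Positive 2 and 3 hold the highest collagen values, while the positive and negative points of Emilin1 do not overlap.

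Other matrix pathway lists were measured in the same sums. In IIA bone, where 27% of all genes were called higher and 23.2% lower, 10 of 11 tested collagen modification genes rose, among them P4hb and P3h1, as did 8 of 17 matrix receptors (2 fell) and 6 of 10 other matrix genes, among them Sparc and Spp1. In lung (11.5% of all genes called higher, 6.8% lower), 3 of 10 collagen modification genes rose and 1 fell, and 4 of 15 receptors rose and 1 fell. Of 4 tested other matrix genes in lung, Spp1 (2.92) and Sparc (3.99) rose and Vcan (-1.69) fell. In brain (2.88% called higher, 0.181% lower), P4ha1 of 9 collagen modification genes and Dag1 and Itga6 of 12 receptors rose. Of 5 tested other matrix genes in brain, Sparc (4.61) rose and Vcan (-3.09) fell. In bone and liver 0 genes of these lists were called by edgeR, as were 0% of all genes. TGF-beta and YAP pathway genes had 2 up and 2 down of 9 in IIA bone and 2 up and 2 down of 8 in lung.

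A second question is whether phagocytes themselves differed between tagged and untagged cells. Counts were summed over macrophage-like, microglia-like, alveolar macrophage-like and monocyte-like cells in samples with at least 10 such cells. The make-up of this sum differed with the sort: monocyte-like cells were 98.7% of it in untagged and 42.9% in tagged bone samples. For brain these shares were 79.0% and 4.41%, for liver 95.2% and 21.0%, for lung 97.3% and 7.14%, and for IIA bone 81.3% and 13.1%. Of the 40 members, 3 to 6 passed the filter in these sums.

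Fn1 was lower in positive phagocytes in brain and lung. In brain it stood at 2407, 1786, 1527 and 1690 CPM in the negative samples and at 377, 102, 162 and 103 CPM in the positive ones (-3.61 ± 0.42, edgeR adjusted p = 0.000563). In lung it stood at 1361, 2276, 2132 and 1996 CPM and at 383, 530, 434 and 568 CPM (-2.33 ± 0.19, edgeR adjusted p = 2.77e-05). Neither pair of groups overlapped. Fn1 also fell in IIA bone, from 1103, 1384 and 1569 CPM (lowest, median and highest) to 209, 539 and 1129, with positive 6 inside the negative range (-1.16 ± 0.30, edgeR adjusted p = 0.00787). In bone (-0.98 ± 0.31) and liver (-1.87 ± 0.68) the difference did not pass. The edgeR adjusted p was 0.158 in bone and 0.121 in liver. Without liver positive 1, Fn1 was called in liver (-2.88). Clusters 3 and 22, which also held Fn1, are not in the intracardiac phagocyte sums. In all lung cells Fn1 stood at 418.8, 765.3, 1197 and 539.3 CPM (negative) and at 904.1, 614.6, 322.6 and 582.9 (positive), with overlap.

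Fn1 lost its call in each of brain, lung and IIA bone when the monocyte-like cells were left out or taken alone. Without them it was -2.76 in brain, -1.75 in lung and -0.18 in IIA bone. Those fits called 0.196% of genes in brain, 0.203% in lung and 25.1% in IIA bone, against 36.2%, 47.5% and 29.3% with monocyte-like cells. In brain and lung the loss is therefore not particular to Fn1. Among monocyte-like cells alone, 0 members were called by edgeR in any tissue, against 0% of genes in the 4 intracardiac tissues and 0.485% in IIA bone, and DESeq2 was not run there. With a minimum of 10 such cells, these fits held 4 negative and 3 positive samples in brain and liver (without positive 4), and 6 and 4 in IIA bone (without positive 1 and 2). At an unadjusted p under 0.05 there was 1 member in brain (5.85% of genes), 1 in lung (6.51%) and 1 in IIA bone (10.4%), and 0 in bone (6.51%) and liver (2.52%). Fn1 was -0.79 in brain, -0.51 in lung and -1.01 in IIA bone there. With the replicate number as a block, Fn1 was called in monocyte-like cells of brain (-0.84) and lung (-0.52).

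In brain phagocytes, 3 of 6 tested members were called, against 36.2% of genes (17.9% higher, 18.3% lower, 46.4% at an unadjusted p under 0.05). Beside Fn1, Emilin1 fell from 19.5, 27.2, 17.4 and 19.4 CPM to 4.95, 6.70, 8.33 and 1.91 CPM (-2.28 ± 0.38, edgeR adjusted p = 0.00177), without overlap. Among monocyte-like cells alone Emilin1 stood at -0.49 and was not called, and without them it missed the filter. Ccn1 rose from 0, 24.9, 4.03 and 1.08 CPM to 129, 604, 29.97 and 33.5 CPM (4.62 ± 1.31, edgeR adjusted p = 0.0207), also without overlap. Ccn1 lost its call without brain negative 3 (4.41), brain negative 4 (4.22) or brain positive 2 (2.89). It also lost it without the monocyte-like cells (2.26), a fit that called 0.196% of genes. With the replicate block, Ecm1 (-1.21) was called in addition, and with no filter on low counts 7 of 35 tested members were called (20.7% of genes).

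In lung phagocytes, 3 of 6 tested members were called, against 47.5% of genes (24.9% higher, 22.6% lower, 54.1% at an unadjusted p under 0.05). Col15a1 rose from 0, 1.74, 0.206 and 0.926 CPM to 7.97, 19.3, 9.83 and 6.61 CPM (3.68 ± 0.60, edgeR adjusted p = 0.000758). Ecm1 fell from 28.5, 140, 70.2 and 38.0 CPM to 8.57, 26.0, 32.5 and 36.0 CPM (-1.81 ± 0.53, edgeR adjusted p = 0.0169). With the classes used before re-clustering, 5 of 9 tested members were called (47.2% of genes). Col15a1 did not overlap between groups, while Ecm1 did, in lung negative 1. Cluster 22, with 51.9% of the UMIs of Ecm1, is not in this sum. It was 1.946% of untagged and 11.01% of tagged lung cells. In all lung cells Ecm1 stood at 28.95, 93.46, 58.19 and 50.69 CPM (negative) and at 151.5, 120.6, 51.73 and 166.1 (positive), with overlap. In phagocytes without the monocyte-like cells Col15a1 stood at 0.06 and Ecm1 at -1.23, neither called. That fit called 0.203% of genes, and untagged lung held only 30 alveolar macrophage-like and 22 macrophage-like cells. A lost call there is therefore not evidence of equal levels. Among monocyte-like cells alone Ecm1 was at 0.15.

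In IIA bone phagocytes, 4 of 5 tested members were called, against 29.3% of genes (15.2% higher, 14.1% lower, 40.6% at an unadjusted p under 0.05). Col14a1 rose from 0, 0 and 1.49 CPM (lowest, median, highest) to 6.54, 30.4 and 50.2 CPM (5.91 ± 0.64, edgeR adjusted p = 7.86e-06). Ecm1 rose from 4.20, 8.44 and 45.1 CPM to 55.3, 115 and 224 CPM (3.08 ± 0.47, edgeR adjusted p = 0.000157). Neither overlapped between groups. Without the monocyte-like cells, where 25.1% of genes were called, Ecm1 (1.64) was called and Fn1 was not. Col14a1 and Lamc1 missed the filter in that fit, so that they have no test there. Lamc1 rose from 3.40, 9.20 and 11.4 CPM to 0, 25.4 and 56.8 CPM (2.08 ± 0.38, edgeR adjusted p = 0.000698), with positive 4 at 0 and positive 6 (9.41) inside the negative range.

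In bone phagocytes 0 of 3 tested members were called by edgeR, against 0.499% of genes, 2 at an unadjusted p under 0.05 (17.5% of genes) and 0 by DESeq2. Without bone positive 3, 1 was called. The count was 8 of 15 tested with the classes used before re-clustering (2.49% of genes called) and 3 of 28 with no filter on low counts (3.51%). In liver phagocytes 0 of 4 were called, against 4.28% of genes (3.87% higher, 0.414% lower). That fit held 4 negative and 3 positive samples, since liver positive 4 had 1 such cell. There were 2 at an unadjusted p under 0.05 (27.4% of genes) and 1 by DESeq2 (10.2% of genes called). Without liver positive 1, which left only liver positive 2 and 3, the count was 5. The number tested and the share of all genes in that last fit are not given here. In liver it was 5 of 34 tested with no filter (6.23% of genes called) and 2 of 7 with the classes before re-clustering (4.81%).

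**Figure D5:**
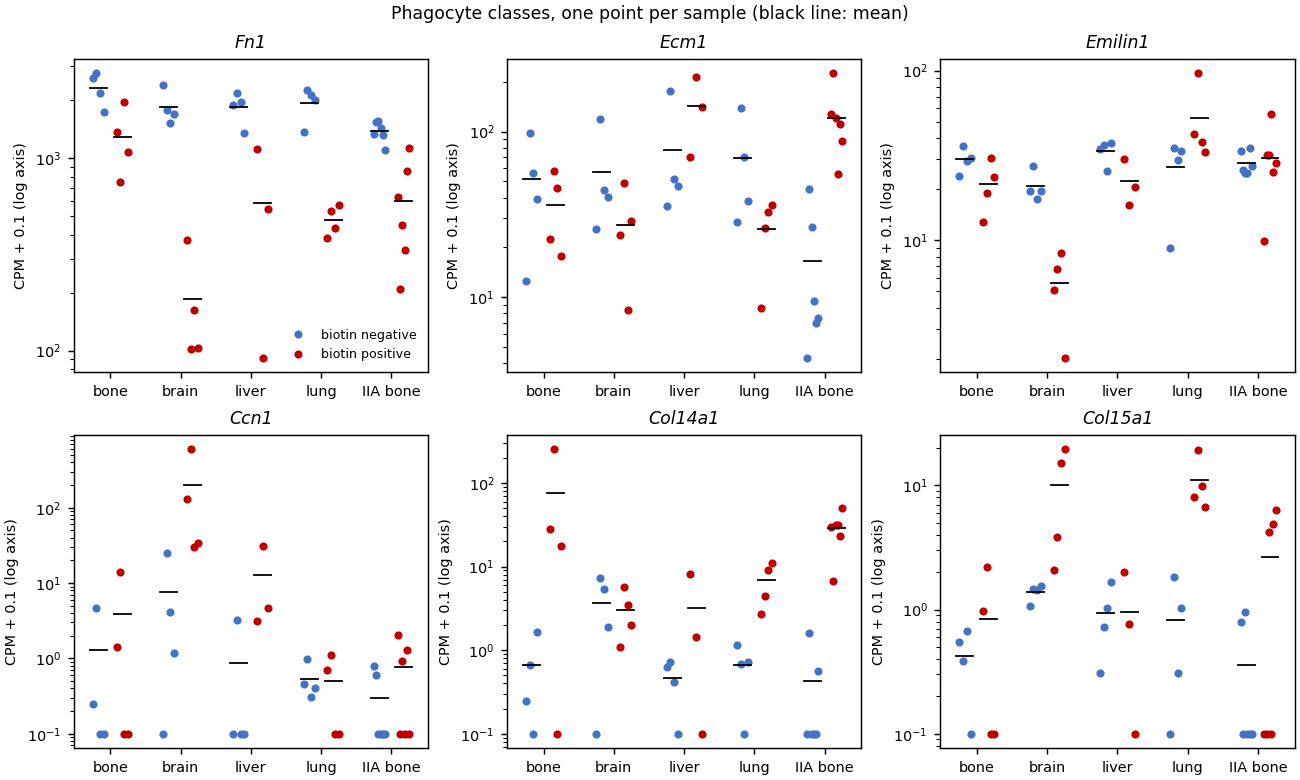
CPM + 0.1 on a log axis of 6 extracellular matrix genes in summed phagocytes, 1 point per sample with a line at the mean, by tissue and biotin sort. Fn1 points of positive samples lie below the negative ones in brain and lung, and Col14a1 and Ecm1 points lie above them in IIA bone.

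Between tissues, untagged cells differed for 7 of 18 tested members, against 11.8% of genes (edgeR F test over 4 tissues). At an unadjusted p under 0.05 there were 9, against 29.1% of genes. The 7 were Hspg2, Nid1, Igfbp7, Bgn, Mgp, Col4a2 and Ccn2. Untagged samples of different tissues with the same number deviated together in 22 of 24 pairs (correlation over 0.1, median 0.52), which this fit does not use. With the number as a block 10 members were called, Mgp no longer and Ecm1, Col4a1, Col5a1 and Lamc1 in addition. Hspg2 stood at 1.06, 8.35, 2.79 and 4.07 CPM in the liver samples (edgeR adjusted p = 0.00338). The other tissues held 0.142, 0.224, 0.114 and 0.0223 CPM (bone), 0.557, 0.264, 0.189 and 0 CPM (brain) and 0.259, 0.170, 0.209 and 0.132 CPM (lung). All liver samples were above all other samples. Nid1 was highest in liver as well (1.92, 17.3, 6.84 and 4.39 CPM, edgeR adjusted p = 0.00446), and so was Igfbp7 (7.46, 40.0, 15.3 and 24.0 CPM, edgeR adjusted p = 0.00821), though liver 1 lay within the lung range for Nid1, and liver 1 and 3 within the brain range for Igfbp7. Liver negative samples held 185 endothelial-like cells, 2.13% of cells, against 0.0436% in bone, 0.429% in brain and 0.132% in lung. Without the stromal and endothelial classes only Nid1 was called, and the number tested and the share of all genes in that fit are not given here. The count was 3 without liver negative 2 or 4, and 4 without bone negative 2 or 4 or lung negative 4. Mgp was highest in brain negative 2 (277 CPM), and it lost its call without that sample or any of 9 others (bone negative 2 and 4, liver negative 1 to 4, lung negative 1, 3 and 4). Its edgeR adjusted p ran from 0.0192 to 0.6248 over its alternatives. Col4a2 and Ccn2 each lost their call on removal of any of 9 samples, among bone, liver and lung, and Bgn without liver negative 2 or 4.

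The biotin difference was not shown to differ between tissues for any member: 0 of 37 tested members passed the edgeR F test over the 3 interaction contrasts, against 1.15% of genes. At an unadjusted p under 0.05 there were 4 (Emilin1, Lum, Col14a1 and Col15a1), against 13% of genes, and DESeq2 called 1, Emilin1. Without brain positive 1, 1 member was called. Emilin1 had the smallest p, with differences of -1.09 for brain, 1.47 for lung, 0.41 for bone and 0.37 for liver (edgeR adjusted p = 0.140).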

How the data were processed

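Single-cell RNA was measured in 33 deposited samples. Unnormalised UMI counts per gene and cell were deposited by the authors, written by cellranger 6.1.2 (32 intracardiac matrices) and 7.1.0 (pooled IIA matrix) per the file headers; Cell Ranger, Seurat and build mm10 are named in the submitters' processing notes. Of 57065 intracardiac barcodes 55366 were kept, and of 26666 IIA barcodes 22685 were assigned to a hashtag and 22362 kept (at least 500 UMIs and 200 genes, at most 15% mitochondrial UMIs). Hashtags needed 10 counts and 3 times the second. Hashtags were matched to sample names by number.

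Cells were clustered with scanpy 1.11.5 (2000 variable genes without the members, 30 components, Leiden resolution 1) and named from 32 marker lists. Clusters with at least 10 stromal or endothelial markers high were re-clustered. Cells were not removed as doublets; an alternative left out the top 5% by Scrublet score. Counts were summed per sample and tested with edgeR 4.0.16 (TMM, filterByExpr, Benjamini-Hochberg), with DESeq2 1.42.0 as an alternative, and the edgeR test was tested on simulated data for all-cell sums, brain phagocytes and both comparisons between tissues. Members and lists were chosen with earlier results of these data known. Named members were those past the threshold (up to 6 per comparison, by p), or the 2 of smallest p where none passed, and the 3 highest in each class; others named were chosen after their values were seen. Samples with the same replicate number deviated together in bone (r 0.43 to 0.70), brain (0.21 to 0.62) and liver (0.24 to 0.54), all 4 pairs each; in lung (3 of 4) and IIA bone (5 of 6) they did not in every pair. Same-numbered untagged samples of 2 tissues had r from -0.04 to 0.69.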

Additional observations from a re-analysis of the deposited data

Results flagged for a closer look

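In 11 of 60 groups of 4 to 6 samples, 1 sample stood apart from the others of its group by Dixon's test, where chance alone gives about 1 in 20 groups. Bone negative 2 had 1.046 CPM of Dcn. Lung positive 2 had 2.482 CPM of Col6a3 and lung negative 2 had 0.08496 CPM of it, the other lung negative samples being at 0. That value is 1 UMI, so any single UMI would stand apart in that group. Lung positive 1 had 16.66 CPM of Bgn, against 2.06 to 3.37 in the others, and lung negative 1 had 0.605 CPM. IIA negative 2 was the high sample for Col5a2 (7.317 CPM), Lox (1.885 CPM), Col1a2 (10.75 CPM) and Ecm1 (13.75 CPM) in all cells, and for Col14a1 in phagocytes (1.486 CPM). It held 3 of the 6 subcluster 0 cells of the negative samples. Brain negative 2 had 24.9 CPM of Ccn1 in phagocytes, against 0 to 4.03 in the others.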

How the results depend on the processing

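Apart from settings that left out 1 sample, 81 of 111 counts stayed within 1.5 times the main count. Counts that stayed at 0, as some did where the main count was 0, are among the 81. With DESeq2 the members called were 4 in bone, 3 in brain, 4 in liver, 1 in liver phagocytes and 1 for the interaction. With no filter on low counts they were 12 in lung, 3 in bone phagocytes, 7 in brain phagocytes and 5 in liver phagocytes. Without the stromal and endothelial classes, or without clusters rich in stromal markers, they were 2 in lung, 1 between tissues and 1 for the interaction, and 5 in IIA bone for the latter, where Col3a1 (-1.24) and Col5a1 (-1.71) reversed. Without monocyte clusters they were 0 of 3 tested in brain phagocytes (0.196% of genes called), 0 of 10 in lung (0.203%) and 1 of 2 in IIA bone (25.1%). Monocyte clusters alone gave 0 in brain, lung and IIA bone, with Ecm1 in lung reversed (0.15). Classes before re-clustering gave 8 in bone, 2 in liver and 5 in lung phagocytes, and 16 intracardiac members highest in stromal classes; counting the unnamed IIA subclusters as stromal gave 40 in place of 0. Bone phagocytes without monocyte clusters gave no value.

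With the replicate number as a block, the counts were 1 in bone, 2 in brain, 0 in liver, 5 in lung, 13 in IIA bone and 10 between tissues. In lung and IIA bone, where not every same-numbered pair deviated together, 3 of 4 and 4 of 6 positive samples correlated best with their own number. Same-numbered intracardiac libraries, lung included, also shared 0 barcodes, unlike those of different numbers. In lung monocyte-like cells Fn1 was called under the block (-0.52).

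Leaving out 1 sample gave 0 to 0 calls in bone, 0 to 3 in brain, 0 to 2 in liver, 5 to 10 in lung, 11 to 31 in IIA bone, 3 to 8 between tissues and 0 to 1 for the interaction. In phagocytes it gave 0 to 1 in bone (1 without bone positive 3), 2 to 3 in brain, 0 to 5 in liver (5 without liver positive 1), 3 to 4 in lung and 3 to 4 in IIA bone. Members highest in stromal classes were 35 to 37 and 0 to 0. Members with few UMIs are limited by depth.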
